A study of Homo sapiens with 5 samples.

Results

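The genes described here are the translation initiation and elongation factors, the proteins that place a ribosome at the start codon of a messenger RNA and then move it along the coding sequence. They were taken by symbol, as every listed gene whose symbol begins with EIF or EEF and a digit, without pseudogenes, recognised by a symbol that ends in P and digits. This gave 43 of the 4202 listed genes, 36 initiation factors (EIF) and 7 elongation factors (EEF). EIF4EBP2, which is no pseudogene, also ends that way and is described with the other genes of the pathway. The symbols put some genes under a name wider than their role: EIF2AK1 and EIF2AK2 are kinases of eIF2, and EEF1AKNMT is a methyltransferase of eEF1A.

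Total RNA was sequenced from a human breast cancer line, MDA-MB-231, which is triple-negative and of mesenchymal character, after 4 h of treatment. There was 1 library for each of 5 conditions: mock, CGI-1746 (a BTK inhibitor that, per the study's title, also acts on the proteasome), LU-102 (known as an inhibitor of the trypsin-like sites of the proteasome), CGI-1746 plus LU-102, and bortezomib, a proteasome inhibitor that served as the control for pathways which proteasome inhibition changes. The labels state no doses, and all results come from 1 cell line. A single library per condition leaves every value without a replicate error, so differences are described and none was tested. The 5 genes chosen as marks of the line were all listed, between CD44 at a mock level of 4.91 and VIM at 92.1, and the 8 chosen as marks of other cell types were looked up, gave no level and were not analysed here.

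Each gene has a level in each library, a normalized expression signal that behaves as a read number scaled to gene length and to the library, so that levels of different genes can be set side by side. Differences are given on log2(level + 1), where the added 1 shrinks the differences of genes with low levels, and ratios are plain ratios of levels. Short RNA genes, whose levels move in fixed steps, showed what 1 read is worth. With the median length of each gene's coding transcripts, this puts the factor genes at about 42 to 54604 reads in mock (median 211). In the bortezomib library it gives about 4.6 to 22206 reads (median 64), and 26 of the 43 genes rest on under 100 reads. The counting error of a level, which covers the drawing of reads alone, had a median of 6.88% in mock and 12.5% under bortezomib.

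Initiation begins when eIF2 brings the initiator tRNA to the small ribosomal subunit, held by the scaffold eIF3. The eIF4 group, with the helicase eIF4A and the scaffold eIF4G, brings the messenger RNA, and eIF1, eIF1A and eIF5 take part in finding the start codon. In elongation eEF1A delivers aminoacyl-tRNAs, eEF1B reloads it with GTP and eEF2 moves the ribosome forward. Phosphorylation of eIF2 by stress kinases, which blocks its recycling by eIF2B, is the best known brake on this machinery when proteins misfold.

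In mock, EEF1A1, the major form of eEF1A, stood far above every other factor gene, at a level of 941, which was 57.4% of the summed level of all 43 genes. Next came EIF1, a start codon fidelity factor, at 93.4, EEF2, the translocase, at 81.4, EIF4A1, the main eIF4A helicase, at 75.1, and EIF4G2, an eIF4G-like protein that does not bind eIF4E, at 63.1. At the low end were the kinase EIF2AK2 at 1.12 and EEF1A2, the second eEF1A form, at 1.41. All 43 genes had a level of at least 1 in each of the mock, CGI-1746, LU-102 and combination libraries, and 18 were under 1 under bortezomib. Of the 4202 listed genes, 4161 to 4177 reached a level of 1 in the libraries other than bortezomib, and only 2231 under bortezomib. The levels of the 43 genes summed to 1640 in mock, 1576 under CGI-1746, 1489 under LU-102, 1652 under the combination and 531 under bortezomib.

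**Figure D1:**
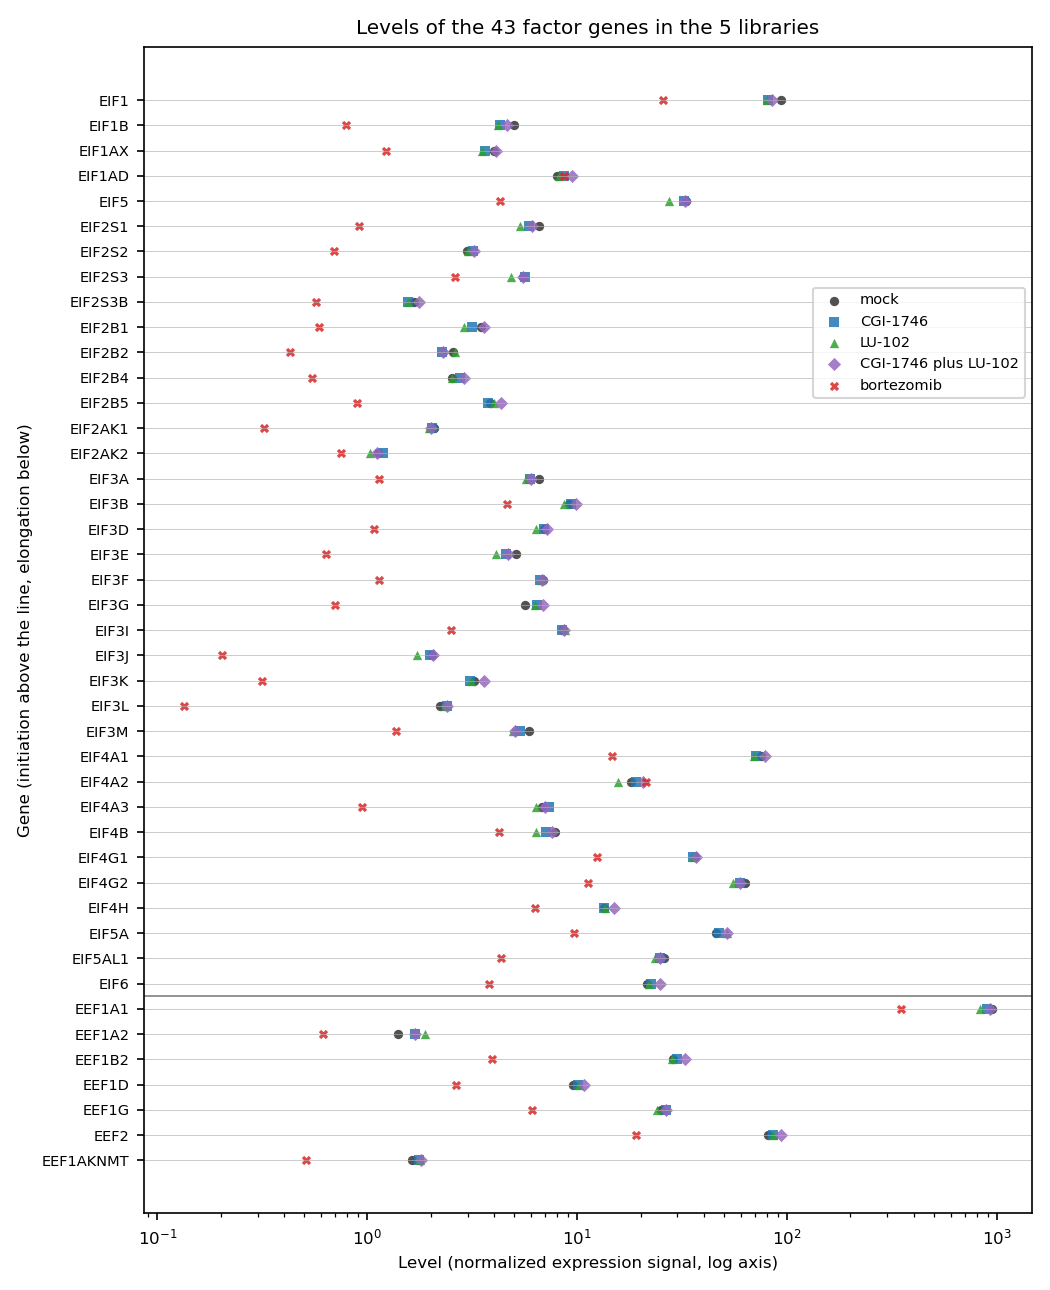
Level of each of the 43 genes (horizontal log axis, normalized signal) in each of the 5 libraries, 1 symbol per library, with initiation factors above the grey line and elongation factors below it. The bortezomib symbols lie left of the others for 41 genes, while for EIF4A2 and EIF1AD they lie among or right of the others.

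CGI-1746, LU-102 and their combination left the levels of the factor genes close to mock, and none was 2-fold higher or lower with any of them. Over all genes such differences were rare too, at 0.119% higher and 0.0478% lower under CGI-1746, 0.0715% and 0 under LU-102, and 0.167% and 0.0477% under the combination. The median of the initiation factors was -0.03 under CGI-1746, -0.08 under LU-102 and 0.02 under the combination, beside -0.02, -0.06 and 0.03 over all genes compared. With median-of-ratios scaling the first and the last of these initiation medians took the other sign, 0.00249 and -0.06. The elongation factors had medians of 0.07, 0.07 and 0.15 in the same order, and 0.10, 0.10 and 0.06 with that scaling. Among genes that reach a level of 5 the LU-102 value was -0.01, and with a pseudocount of 5 the combination value was 0.07. These comparisons share the mock library.

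At the lower mark of 1.2-fold, 0 of the 43 genes were higher or lower under CGI-1746, where 2.68% of all genes were higher and 2.15% lower. Under LU-102, EIF4B, which stimulates the helicase eIF4A, was the 1 gene past it, and lower; 3.91% of all genes were lower by that much and 3.34% higher. Under the combination the count was 0 in both directions, where 9.48% of all genes were higher and 2.51% lower. EIF4B had levels of 7.85 in mock, 7.10 under CGI-1746, 6.34 under LU-102, 7.54 under the combination and 4.26 under bortezomib. Its LU-102 difference was -0.27, just past the mark, and it was no longer past it with a pseudocount of 5 or under either other scaling.

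**Figure D2:**
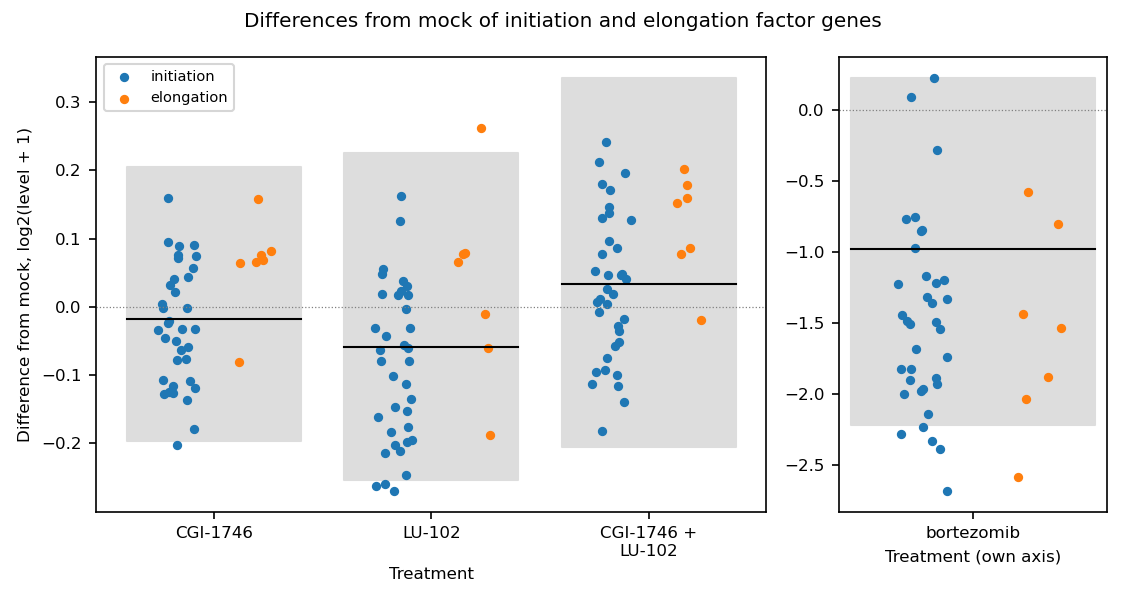
Difference of each gene from mock on log2(level + 1) (vertical axis, bortezomib on its own axis), blue points for initiation and orange points for elongation factors. Grey bands span the 5th to 95th percentile of all genes compared and black lines their median. Under bortezomib 10 of the 43 genes lie above that median.

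Under the combination 6 of the 7 elongation factors were above mock, as were 22 of the 36 initiation factors and 2420 of the 4189 genes compared. EEF2 (chromosome 19, 3976056 to 3985463) had levels of 81.4 in mock, 85.8 under CGI-1746, 85.2 under LU-102, 93.7 under the combination and 19.0 under bortezomib. It was thus 0.20 above mock under the combination, a ratio of 1.15, on about 4336 reads in mock. EEF1B2, which encodes the exchange factor of the eEF1B complex, had 28.5, 29.9, 28.3 and 32.4 in the first 4 libraries and 3.92 under bortezomib. Its partners were EEF1D, a second exchange factor, at 9.56 in mock and 10.7 under the combination, and EEF1G, the scaffold of that complex, at 25.0 and 26.5. The combination differences of the 3 eEF1B genes were 0.18, 0.15 and 0.08. With median-of-ratios scaling EEF2 was 0.10 above mock, EEF1B2 0.08 and EEF1D 0.06, and EEF1G was at -0.02.

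EEF1A1 (chromosome 6, 73515750 to 73521032) was the elongation factor below mock in all 4 treatments, at 941 in mock, 890 under CGI-1746, 826 under LU-102, 928 under the combination and 346 under bortezomib. Its LU-102 ratio to mock was 0.878. EEF1A2, the form of muscle and nerve, went the other way in the first 3 treatments, at 1.41 in mock, 1.68 under CGI-1746, 1.88 under LU-102 and 1.69 under the combination. Its highest ratio to mock, 1.34 under LU-102, rests on about 65 reads against 48. EEF1A1 exceeded EEF1A2 669-fold in mock and 439-fold under LU-102. EEF1AKNMT had levels between 1.64 and 1.80 in the first 4 libraries and 0.51 under bortezomib.

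Among initiation factors, the lowest under CGI-1746 were EIF1 at -0.20, its paralogue EIF1B at -0.18, EIF2S1, the regulated alpha subunit of eIF2, at -0.14, EIF3E at -0.13 and EIF4B at -0.13. EIF1 had levels of 93.4 in mock, 81.0 under CGI-1746, 80.4 under LU-102, 84.7 under the combination and 25.6 under bortezomib, so mock was its highest library. The highest under CGI-1746 were EIF3G, an eIF3 subunit that takes part in scanning, at 0.16, and EIF4A3, the helicase of the exon junction complex, EIF1AD, an eIF1A-like protein, and EIF2B4 at 0.09 each, then EIF2S2, the eIF2 beta subunit, at 0.08.

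Under LU-102 the lowest were EIF4B at -0.27, EIF5, which triggers GTP hydrolysis by eIF2, at -0.26, EIF3E at -0.26, EIF2S1 at -0.25 and EIF1 at -0.21. EIF5 had levels of 33.1 in mock, 32.3 under CGI-1746, 27.4 under LU-102, 32.4 under the combination and 4.30 under bortezomib, so that LU-102 stood apart from mock, CGI-1746 and the combination. EIF5A, which carries the modified lysine hypusine and helps ribosomes through stretches hard to translate, was highest at 0.16, with 46.0 in mock and 51.6 under LU-102. EIF3G at 0.12, EIF3L at 0.05, EIF2B5, the catalytic subunit of eIF2B, at 0.05 and EIF3I at 0.04 followed.

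Under the combination EIF3G was highest at 0.24, at 5.66 in mock and 6.88, a ratio of 1.21. It was followed by EIF1AD at 0.21, EIF6, a factor of large subunit assembly that keeps the ribosomal subunits apart, at 0.20, EIF4A2 at 0.18 and EIF5A at 0.17. The lowest were EIF3M at -0.18, EIF1 at -0.14, EIF3A at -0.12, EIF2B2 at -0.11 and EIF3E at -0.10. EIF3M stood at 5.87 in mock and 5.06 under the combination.

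The small differences of the factor genes went with the GC content of their transcripts. Across the 43 genes the Spearman correlation of GC content with the difference from mock was 0.57 for CGI-1746, 0.71 for LU-102 and 0.66 for the combination, and -0.08 for bortezomib. Over all genes with a coding transcript in GENCODE (3859 under LU-102) it was 0.38, 0.70, 0.62 and 0.28. These are descriptions across genes of the same libraries, with mock in each. Of the 5 lowest initiation factors under LU-102, EIF3E has a GC content of 38.2%, EIF2S1 39.2% and EIF5 41.6%, while EIF4B, the lowest, and EIF1 each have 46.4%, close to the median of the initiation factors. The highest factor gene, EEF1A2, has 66.4%. The elongation factors had a median GC content of 54.8% and the initiation factors 46.1%. The part of GC content in the distance between these groups was not tested.

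**Figure D3:**
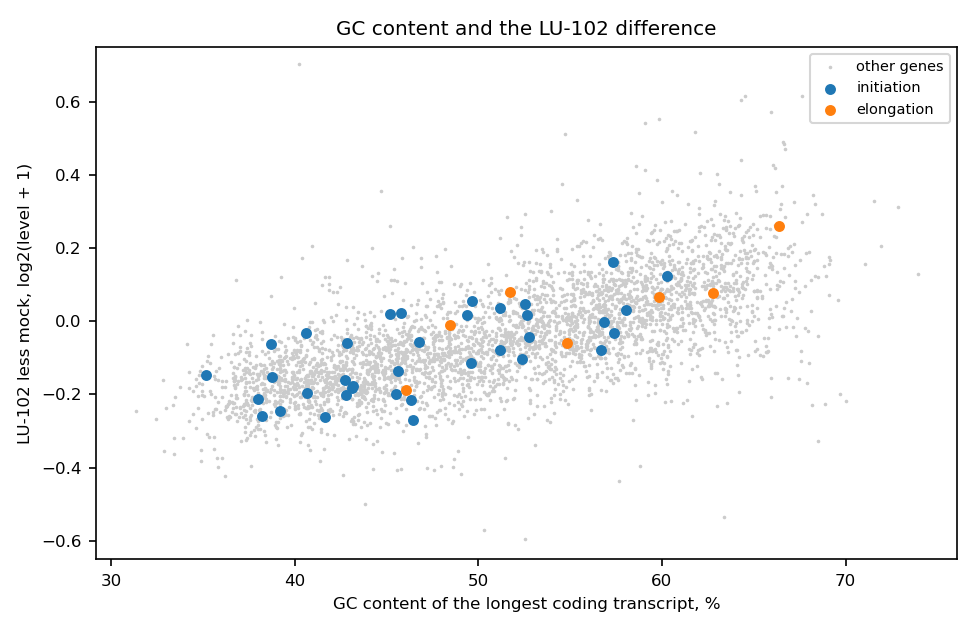
Difference of LU-102 from mock on log2(level + 1) (vertical axis) against GC content of the longest coding transcript in percent (horizontal axis), 1 point per gene, blue for initiation, orange for elongation factors and grey for other genes. The 43 factor genes lie within the rising cloud of the other genes, with EEF1A2 at the upper right at 66.4% GC.

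Setting the combination beside either compound alone asks what the other one adds. Against CGI-1746 the initiation factors had a median of 0.04 and the elongation factors one of 0.06, beside 0.04 over all genes, and 0 of the 43 were past 1.2-fold or 2-fold, where at 1.2-fold 6.46% of all genes were higher and 1.05% lower, and at 2-fold 0.0715% and 0.0238%. Against LU-102 the medians were 0.12 and 0.14 beside 0.08. EIF4A2 was the 1 gene past 1.2-fold, higher by 0.38, where 6.25% of all genes were higher and 1.34% lower; at 2-fold 0 of the 43 were, beside 0.143% of all genes higher. It stood at 20.6 under the combination and 15.6 under LU-102, a ratio of 1.32 on about 666 and 509 reads. With median-of-ratios scaling the medians against CGI-1746 were -0.08 and -0.07. Those against LU-102 nearly vanished under that scaling, with opposite signs, as given in the last section. EIF4A2 was then not past 1.2-fold against LU-102.

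Departure from additivity, the difference of the combination from mock minus the sum of the differences of both compounds, was taken per gene. For the initiation factors the median was 0.14 and for the elongation factors 0.06, beside 0.10 over all 4197 genes. At 1.2-fold 9 of the 43 genes departed upward and 0 downward, with 12.3% and 2.29% over all genes. The highest were EIF2B1 at 0.35 and EIF4B at 0.35, and the lowest was EEF1A2 at -0.26. With median-of-ratios scaling the initiation median became -0.01 and 0 genes departed upward, so these departures have no firm sign.

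Bortezomib went with lower levels of nearly all listed factor genes. In that library 41 of the 43 genes lay below mock, as did 3862 of the 4189 genes compared. Of the 43, 33 were lower by 2-fold or more, where 48.1% of all genes compared were 2-fold or more lower and 1.38% higher. At 1.2-fold 41 were lower and 0 higher, beside 86.6% and 4.7% of all genes. The median was -1.50 for the initiation and -1.53 for the elongation factors, beside -0.98 over all genes. Genes of high level stood lower in general: of the genes with a mock level of at least 5, 72.2% were 2-fold or more lower with a median of -1.45, and 22 of the 28 factor genes among them, with a median of -1.88. With median-of-ratios scaling the medians were -0.95 for initiation, -0.76 for elongation and -0.44 for all genes, and 21 of the 43 genes were 2-fold or more lower. The share of all genes was not counted under that scaling, so the 48.1% cannot be set beside these 21. The factor genes made up 1.65% of the summed levels of all listed genes in mock and 0.392% under bortezomib, while that sum was 99255 in mock and 135512 under bortezomib. Their share was 1.57% under CGI-1746, 1.18% under LU-102 and 1.33% under the combination, with sums of 100684, 126120 and 124373. The share thus also moves with the levels of the other genes. Since the levels behave as scaled to the library, they do not give the amount of RNA in a sample. In bulk RNA, fewer cells and less RNA per cell cannot be told apart.

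On log2(level + 1), the lowest under bortezomib were EIF5 at -2.68, EEF1B2 at -2.59, EIF4G2 at -2.39, EIF5AL1 at -2.33 and EIF4A1 at -2.28. Then came EIF6 at -2.23, EIF5A at -2.14 and EEF2 at -2.04. This order depends on the added 1: with a pseudocount of 0.1 the lowest were EIF3L, EIF3K, EIF5, EIF3G and EEF1B2. The plain ratios to mock were 0.0604 for EIF3L and 0.0976 for EIF3K, on about 5.5 and 4.6 reads, and 0.130 for EIF5. EEF1B2 had a ratio to mock of 0.137, EEF2 0.234, EEF1G 0.243, EEF1D 0.277, EEF1AKNMT 0.313, EEF1A1 0.368 and EEF1A2 0.435, the last at a level of 0.612 on about 23 reads. The share of EEF1A1 in the summed level of all factor genes was 65.3% under bortezomib.

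Among initiation factors the highest under bortezomib were EIF4A2 at 0.23, EIF1AD at 0.09, EIF2AK2, the kinase PKR that senses double-stranded RNA, at -0.28, EIF4B at -0.75 and EIF2S3B, a copy of EIF2S3, at -0.77. The place of EIF2S3B depends on the added 1, since its mock level was only 1.67. With a pseudocount of 0.1 or median-of-ratios scaling EIF3B took that place. The plain ratio to mock was 0.341 for EIF2S3B and 0.508 for EIF3B. EIF1AD (chromosome 11, 65996545 to 66002157) had levels of 8.04 in mock, 8.63 under CGI-1746, 8.15 under LU-102, 9.47 under the combination and 8.61 under bortezomib. Its bortezomib level lay among those of the other libraries. EIF2AK2 had 1.12 in mock and 0.747 under bortezomib, a ratio of 0.667, and its locus overlaps GPATCH11, another listed gene. With median-of-ratios scaling EIF2AK2 and EIF4B stood above mock, at 0.20 and 0.08, and EIF4A2 and EIF1AD at 1.16 and 0.97.

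The eIF4A helicases parted in the bortezomib library. EIF4A1 (chromosome 17, 7572825 to 7579006) had levels of 75.1 in mock, 71.2 under CGI-1746, 69.4 under LU-102, 77.9 under the combination and 14.7 under bortezomib. EIF4A2 (chromosome 3, 186783577 to 186789897), its close paralogue, had 18.1, 19.0, 15.6, 20.6 and 21.3 in the same order. EIF4A1 was thus 4.16 times EIF4A2 in mock, between 3.74 and 4.43 times under CGI-1746, LU-102 and the combination, and 0.689 times under bortezomib. This ratio within a library does not depend on scaling, and the bortezomib levels rest on about 449 for EIF4A1 and 755 for EIF4A2. The longest coding transcript of EIF4A1 shares 0 of its 1607 windows of 150 bases, counted only where every base is identical, with coding transcripts of EIF4A2. EIF4A3 followed EIF4A1, at 6.77 in mock and 0.944 under bortezomib.

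**Figure D4:**
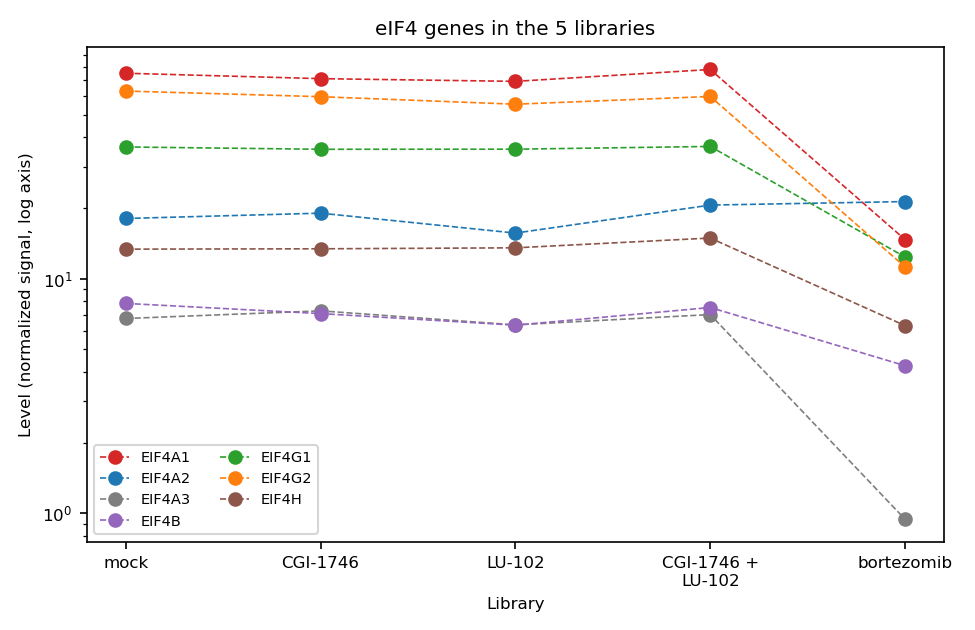
Level of 7 eIF4 genes (vertical log axis, normalized signal) in the 5 libraries, with dashed lines that only join the points of a gene. Under bortezomib EIF4A2 at 21.3 is above EIF4A1 at 14.7, while in mock EIF4A1 at 75.1 is above EIF4A2 at 18.1.

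Both helicase genes carry small nucleolar RNAs, guides of ribosomal RNA modification, in their introns. In EIF4A2, SNORA63 had 142 reads in mock, 154 under CGI-1746, 157 under LU-102, 203 under the combination and 814 under bortezomib, and SNORA81 had 16, 4, 9, 7 and 18. In EIF4A1, SNORA48 had 14 reads in mock and 63 under bortezomib, SNORD10 had 9 and 79, and SNORA67 had 10 and 92. SNORD97 of EIF4G2 had 63 and 1264. All 6 lay outside the exons of coding transcripts and inside exons of other GENCODE transcripts of the host, so whether their reads also count for the host depends on the authors' annotation. The part of SNORA63 in the EIF4A2 level was not tested.

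Both eIF4G genes also stood lower under bortezomib. EIF4G1, the main scaffold, had 36.4 in mock and 12.4 under bortezomib, and EIF4G2 had 63.1 and 11.2, so that EIF4G1 was 0.578 times EIF4G2 in mock and 1.10 times under bortezomib. EIF4H, which like EIF4B stimulates eIF4A, had 13.4 and 6.31, a ratio of 0.472, and EIF4B had one of 0.543.

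The subunits of eIF3, of which 11 were listed, did not keep their proportions under bortezomib. In mock they lay between EIF3J at 2.03 and EIF3B, a core subunit, at 9.14, a 4.49-fold range, and the range was 4.68-fold under CGI-1746, 5.07-fold under LU-102 and 4.78-fold under the combination. Under bortezomib it was 34.5-fold, from EIF3L at 0.134 to EIF3B at 4.64. EIF3B kept 0.508 of its mock level, EIF3I 0.293 and EIF3M 0.232, while EIF3A, the largest subunit, EIF3F, EIF3D, EIF3E and EIF3G kept between 0.124 and 0.173. EIF3J kept 0.0997, EIF3K 0.0976 and EIF3L 0.0604. The last 3 rest on only about 4.6 to 5.8 reads each in the bortezomib library, so their order among themselves cannot be read, and EIF3B on about 260. The lower end of the 34.5-fold range rests on these few reads too. Above the last 3, the lowest subunit was EIF3E, at 0.634 on about 17 reads.

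**Figure D5:**
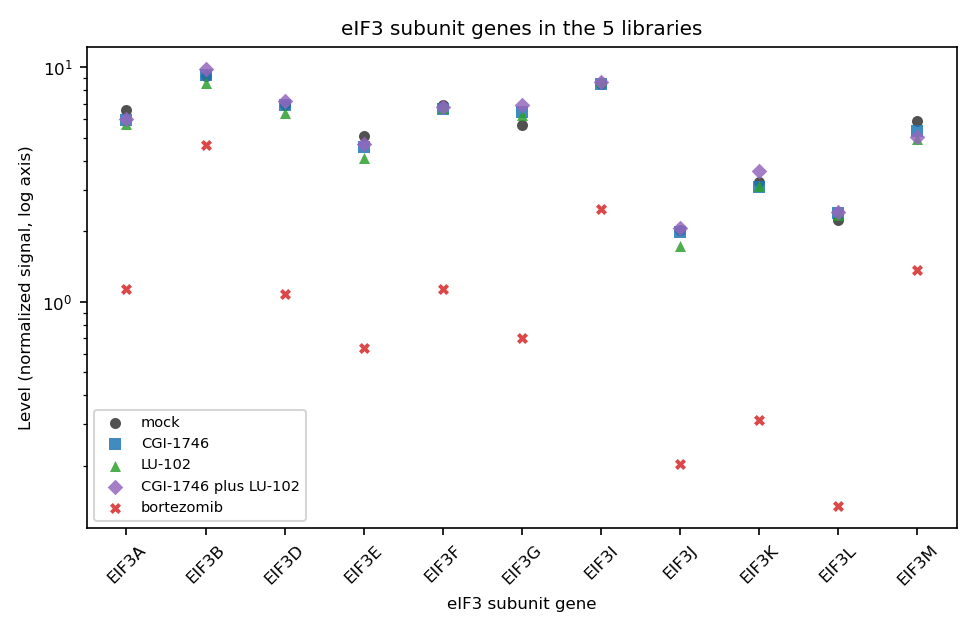
Level of the 11 listed eIF3 subunit genes (vertical log axis, normalized signal) in the 5 libraries, 1 symbol per library. The bortezomib symbols spread over a 34.5-fold range, from EIF3L at 0.134, on only about 5.5 reads, to EIF3B at 4.64, and the mock symbols over a 4.49-fold range.

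The eIF2 subunits also differed from each other under bortezomib. EIF2S1 had levels of 6.54 in mock, 5.87 under CGI-1746, 5.36 under LU-102, 6.06 under the combination and 0.910 under bortezomib. EIF2S2 had 2.97 in mock and 0.694 under bortezomib, and EIF2S3, the gamma subunit, 5.50 and 2.60. The ratios to mock were 0.139, 0.234 and 0.473 for alpha, beta and gamma. Of the exchange factor eIF2B, EIF2B1, EIF2B2, EIF2B4 and EIF2B5 were listed, with levels from 2.54 to 3.85 in mock and from 0.427 to 0.891 under bortezomib. The kinase EIF2AK1, known as the heme-regulated inhibitor, had 2.08 and 0.323.

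EIF5AL1 and EIF2S3B are near copies of EIF5A and EIF2S3, and reads may be split between a copy and its source. Of the windows of 150 bases in the longest coding transcript, 1.17% of those of EIF5AL1 occur in EIF5A transcripts and 3.66% of those of EIF2S3B in EIF2S3 transcripts. EIF5AL1 had 25.8 in mock and 4.32 under bortezomib, EIF5A 46.0 and 9.64. Only windows identical in every base were counted, so these percents do not bound the reads that could be split. How such reads were assigned is not stated, and the levels of both copies are uncertain.

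The starts of the genes were compared for the terminal oligopyrimidine run, since messenger RNAs of many ribosomal proteins and elongation factors are known to begin with it and to be controlled in translation by mTORC1 and LARP1. A start was counted where its first base was C and at least the next 4 bases were each C or T, read on the strand of the gene from a start that RefSeq annotates (GRCh38.p14), and a gene with several starts counted when any had it. Of the 34 factor genes with a promoter there, 11 had such a start, 32.4%, beside 9.32% of the 3338 listed genes and 5.14% of all 27305 genes with one. They were 3 of the 4 elongation factors (EEF1A1, EEF1B2 and EEF2) and 8 of the 30 initiation factors (EIF2S3, EIF2S3B, EIF3D, EIF3F, EIF3K, EIF3M, EIF4A2 and EIF4B). The sequences below give 35 bases before and 20 from the start, with the run in capitals. They cover the 4 elongation factors with a promoter there, of which EEF1B2 has another start without the run and EEF1G has no run. Also given are EIF4A2 and EIF4B, among the highest initiation factors under bortezomib, and EIF4A1, which lacks the run. Not printed are EIF1AD and EIF2AK2, also among the highest, which lack the run. Nor are EIF3D at -1.93 and EIF3F at -1.89 under bortezomib, which have it.
EEF1A1: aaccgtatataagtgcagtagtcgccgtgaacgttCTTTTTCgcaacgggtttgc
EEF2: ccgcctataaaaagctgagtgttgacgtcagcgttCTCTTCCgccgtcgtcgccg
EEF1B2: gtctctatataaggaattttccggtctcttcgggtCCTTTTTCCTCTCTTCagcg
EEF1B2 other start: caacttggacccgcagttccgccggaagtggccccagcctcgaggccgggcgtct
EEF1G: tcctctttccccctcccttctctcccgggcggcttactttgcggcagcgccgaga
EIF4A2: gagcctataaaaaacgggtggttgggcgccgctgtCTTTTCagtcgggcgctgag
EIF4B: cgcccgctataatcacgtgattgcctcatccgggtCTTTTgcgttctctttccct
EIF4A1: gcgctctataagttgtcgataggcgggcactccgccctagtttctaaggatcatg
These lie in GRCh38.p14 with EEF1A1 at chr6:73521013-73521067 (minus strand), EEF2 at chr19:3985444-3985498 (minus strand), EEF1B2 at chr2:206159860-206159914 and its other start at chr2:206159574-206159628 (plus strand), and EEF1G at chr11:62573872-62573926 (minus strand). The others are EIF4A2 at chr3:186783542-186783596 (plus strand), EIF4B at chr12:53006421-53006475 (plus strand) and EIF4A1 at chr17:7572790-7572844 (plus strand).

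Genes with and without this start were found at both ends of the bortezomib differences. The 11 with it ranged from -2.59 for EEF1B2 to 0.23 for EIF4A2, with a median of -1.54, and the 23 without it from -2.68 for EIF5 to 0.09 for EIF1AD, with a median of -1.49. Under the combination the medians were 0.04 and 0.03, under LU-102 -0.10 and -0.08, and under CGI-1746 -0.04 and -0.03. Among initiation factors alone, the bortezomib medians were -1.20 for the 8 with it and -1.49 for the 22 without. The order was the other way for the elongation factors, at -2.04 for the 3 with it and -1.88 for the 1 without. It was also the other way over all listed genes with a promoter there, at -1.11 for 310 with it and -0.98 for 3019 without. None of these differences was tested.

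Of 37 other genes of translation and its control, 22 were listed. Under CGI-1746 their median was -0.05, under LU-102 -0.12, under the combination -0.07 and under bortezomib -1.10, beside -0.02, -0.06, 0.03 and -0.98 over all genes. PPP1R15A, known as GADD34, which directs a phosphatase to eIF2 and so restores translation, had 24.4 in mock, 29.7 under CGI-1746, 25.5 under LU-102, 33.9 under the combination and 35.7 under bortezomib. It was above mock in every treatment, by 0.46 under the combination. Its constitutive relative PPP1R15B had 16.9 in mock and 6.56 under bortezomib and was below mock in every treatment.

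MKNK2, a kinase of eIF4E, and PPP1R15A were the 2 of the 22 pathway genes past 1.2-fold under CGI-1746 and under the combination, both higher. Of all genes, 2.68% were higher by that much under CGI-1746 and 9.48% under the combination. MKNK2 had 1.69 in mock, 2.39 under CGI-1746, 2.10 under LU-102, 2.58 under the combination and 1.51 under bortezomib. BTF3, a subunit of the nascent chain complex, was the 1 past it under LU-102, lower at a ratio of 0.801 to mock, where 3.91% of all genes were lower. EIF4EBP2, which blocks eIF4E, had 8.38 in mock and 7.70, 7.15, 7.59 and 3.46 in the treatments in the order above. Under bortezomib 15 of the 22 genes were 2-fold or more lower, beside 48.1% of all genes, and PPP1R15A was the 1 gene 1.2-fold or more higher, beside 4.7%. NACA, the partner of BTF3, had 6.31 in mock and only 0.309 under bortezomib, a ratio of 0.049. The reads behind that low level were not estimated, so this ratio is uncertain. TPT1, a growth-related protein, had 28.8 and 2.77, a ratio of 0.096, while DENR, which acts in reinitiation, had 5.12 in mock and 5.38 under bortezomib.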

How the data were processed

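Per the submitters' processing notes, the data were processed with Partek against hg38. Which versions, aligner, annotation, filter and normalization they used is not given in the sources used here. Per the file headers, the signal of a gene in a library is a least squares mean (LSMean) made by the authors. A column of total counts equals the sum of the 5 levels. The table also holds deposited ratios, which equal the ratios of levels, a signed fold change score, and p-values with their FDR from the authors' software, which were not used because each condition has 1 library. Level columns repeated in other comparisons (7) were identical and not used. The listed genes have levels that sum to at least 5.04 over the 5 libraries.

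Differences were taken on log2(level + 1) where 1 or both libraries had a level of 1 or more, and a gene was counted at 2-fold or 1.2-fold on that scale. No test was run. Approximate reads are level times the median length of basic coding transcripts in GENCODE 29, divided by what 1 read adds. That value came from 18 to 28 small nucleolar and nuclear RNAs per library, of which all or all but 1 lay within 0.1 of a whole number of steps, with 2 steps taken as 1 read. Median-of-ratios factors used 445 genes that reach 5 in all libraries. Gene positions and promoters came from RefSeq (GRCh38.p14). All 43 genes matched, EEF1AKNMT through its other name METTL13. The script was tested on simulated data. Work was done in Python 3.11.15 (pandas 2.3.3, numpy 2.4.6, scipy 1.17.1; figures with matplotlib 3.10.9).

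The factor genes, the pathway list and the rules were chosen with earlier results of these data known. Named were every elongation factor, the 3 initiation factors with the highest mock level, the 5 highest and 5 lowest of each treatment, complexes as groups, genes past 1.2-fold with either inhibitor or both, and pathway genes likewise. Genes most alike in pattern were not sought, since 5 libraries are too few. Host small nucleolar RNAs, the GC content, the start sequences, EIF4G2 in the order of mock levels, EIF4H, EIF3M, EIF3I, NACA, TPT1, DENR and PPP1R15B were chosen after their values were seen.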

Additional observations from a re-analysis of the deposited data

How the results depend on the processing

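Alternatives were a pseudocount of 0.1 or 5, no filter, a level of at least 5, median-of-ratios scaling, centring on the all-gene median, leaving out members that are no subunits of a factor, and, chosen after seeing the data, leaving out EIF5AL1 and EIF2S3B. Of 261 medians and counts under an alternative, 218 stayed within the robust spread of 2 libraries (0.0983 on the log2 scale) or within 1.5 times the count. Of these, 40 came from leaving out the filter, which could change nothing because all 43 genes reach a level of 1 in mock. The spread is that of single genes, so a small median could change sign and still count as unchanged. The total is therefore no measure of stability.

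For bortezomib the initiation median was -2.34 with a pseudocount of 0.1, -0.74 with 5, -1.89 with a level of at least 5, -0.95 with median-of-ratios scaling and -0.52 centred. The elongation median was -1.81, -1.43, -1.88, -0.76 and -0.55 in the same order, and -1.71 without EEF1AKNMT. For the counts that follow, here and in the next paragraph, shares over all genes were not taken under the alternatives. Genes 2-fold or more lower were 12 with a pseudocount of 5, 21 with median-of-ratios scaling and 10 centred, and at 1.2-fold 26 with a level of at least 5, where 28 genes were compared. Higher genes were 1 (2-fold) and 2 (1.2-fold) with median-of-ratios scaling, and 2 and 4 centred. Centring put EEF1A2 at 0.40, EEF1AKNMT at 0.18, EIF2AK2 at 0.70, EIF2S3 at 0.13, EIF2S3B at 0.21, EIF3B at 0.13, EIF4B at 0.23 and EIF4H at 0.0048 above it, and median-of-ratios scaling put EIF2AK2 at 0.20 and EIF4B at 0.076.

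With LU-102, genes 1.2-fold higher were 1 with a pseudocount of 0.1, median-of-ratios scaling or centring, and genes lower were 4 with a pseudocount of 0.1 and 0 with 5 or either scaling. With the combination 1 gene was higher with a pseudocount of 0.1. Median-of-ratios scaling gave medians of -0.077 (initiation) and -0.067 (elongation) for the combination against CGI-1746, and 0.0039 and -0.00093 against LU-102, where higher genes were 0, or 2 with a pseudocount of 0.1. For departure from additivity it gave -0.011 and -0.11, and -0.029 over all genes, and centring gave 0.043 and -0.044. Upward departures were then 0 under both, and 1 with a pseudocount of 5, and downward ones were 1 under both and with a pseudocount of 0.1. The cause of these shifts was not tested. No paired analysis was possible because each condition has 1 library. Depth limits low genes of the bortezomib library most.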
